A study of Coprinopsis cinerea with 10 samples.

Results

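The hydrophobins of the ink cap mushroom Coprinopsis cinerea were followed from vegetative mycelium to the mature cap. They were chosen by name: 5 genes whose listed product contains the word hydrophobin, plus CC1G_02184, listed as CoH1, which makes 6 of the 13320 genes on the array. CC1G_02182 is listed as hydrophobin, CC1G_09189 as hydrophobin-315, and CC1G_08314, CC1G_10176 and CC1G_13822 all as hydrophobin-251. The choice by name can miss members of the family. Of the 6, CC1G_13822 has the longest gene model in RefSeq. Whether its probes lie in hydrophobin sequence was not tested, so all its values are those of the probes under that name.

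Hydrophobins are small secreted proteins of filamentous fungi that carry a conserved pattern of cysteines. They assemble at the border between water and air into a thin film with one water-repellent side. In the mushroom Schizophyllum commune, some hydrophobins let hyphae grow out of the moist medium into the air, and another lines the air channels of the fruiting body. Fungi of this group hold many hydrophobin genes, and individual genes are known to be active in mycelium or in fruiting bodies.

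Total RNA was copied into cDNA, labelled with Cy3 and hybridised to one-colour NimbleGen arrays, with 2 biological replicates for each of 5 stages. In order of development these were mycelium, initials (2 mm in height), stage 2 primordia (1 cm), young fruiting bodies (2 cm) and mature fruiting bodies (4 cm), whose cap had fully opened. All came from one dikaryotic strain (a mycelium with a pair of nuclei per cell) of 50% Okayama-7 origin, backcrossed for 5 generations to that monokaryon, about 98.44% homologous to it and still able to fruit. Plates of yeast-malt-dextrose agar were grown over by mycelium at 37 °C within about 1 week. Cultures fruited at 25 °C in a cycle of 12 h light and 12 h dark. Temperature, and possibly light, thus differed between growth of mycelium and fruiting. In comparisons with mycelium these conditions cannot be told apart from stage. RNA of each mycelium replicate came from 5 pooled plates, and that of each fruiting stage replicate from 4 to 5 pooled structures. From mature fruiting bodies the cap alone was taken, which means that stage and tissue cannot be told apart for them. In such whole-tissue RNA, fewer cells that express a gene and less RNA per cell cannot be told apart.

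The values are intensities in arbitrary units on a linear scale, and log2 changes carry the SE of a limma model over all 10 arrays (n = 2 for each stage). A change was called at a Benjamini-Hochberg adjusted p under 0.05 over all 13320 genes. The median intensity of an array lay between 3268 and 3403, and 4 times the signal of the random-sequence control probes, between 89.4 and 117, was taken as the floor of detection. All 6 hydrophobins were above the floor on all 10 arrays. The fruiting body lectin galectin-1 (CC1G_05003) was higher in initials (mean 14893) than in mycelium (3186). Galectin-2 (CC1G_05005) was 1.49-fold higher there (0.58 ± 0.0532, adjusted p = 5.99e-05). The lectin CGL3 (CC1G_00723) did not pass (0.12 ± 0.195, adjusted p = 0.618), so the lectins did not all separate these stages. The meiotic nuclease Spo11 (CC1G_03320) stood at 3001 in young fruiting bodies and was under the floor in mycelium. In initials against mycelium, 4 of the 9 genes listed with meiotic, recombination or spore products were higher and 3 lower. Among all genes, 37.5% were called higher and 33.7% lower at that step, so these counts lay near the shares of the array. Replicates correlated across genes at r between 0.997 and 0.999. Their spread was 1.13 to 1.26 times that expected from the 2 probe blocks within an array in mycelium, initials and young fruiting bodies, against 2.33 to 2.39 times in mature caps and primordia. The image identifiers of the 10 arrays shared 1 common part, read here as 1 slide with the arrays placed stage by stage. On that reading, position and stage cannot be told apart.

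Of the 6 hydrophobins, 5 had their highest level in mycelium and fell more than 2-fold by the fruiting initial stage. Among all genes, 25% had their highest mean in mycelium. All 6 varied over the 5 stages (F test in limma, adjusted p between 4.58e-08 and 6.15e-06), as did 89.8% of all genes. The mature cap was the lowest stage for 5 of the 6, against 32% of all genes. CC1G_13822, the member that was not highest in mycelium, varied least and had its highest mean in young fruiting bodies. The 5 did not share a course afterwards. Both members on chromosome 10 went on falling up to the young fruiting body. Hydrophobin-315 stood higher again in primordia before it fell further. Both hydrophobin-251 genes that had fallen showed no called change until the mature cap. Each call among the 5 in primordia against initials was lost under some alternative analyses, as given below.

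**Figure D1:**
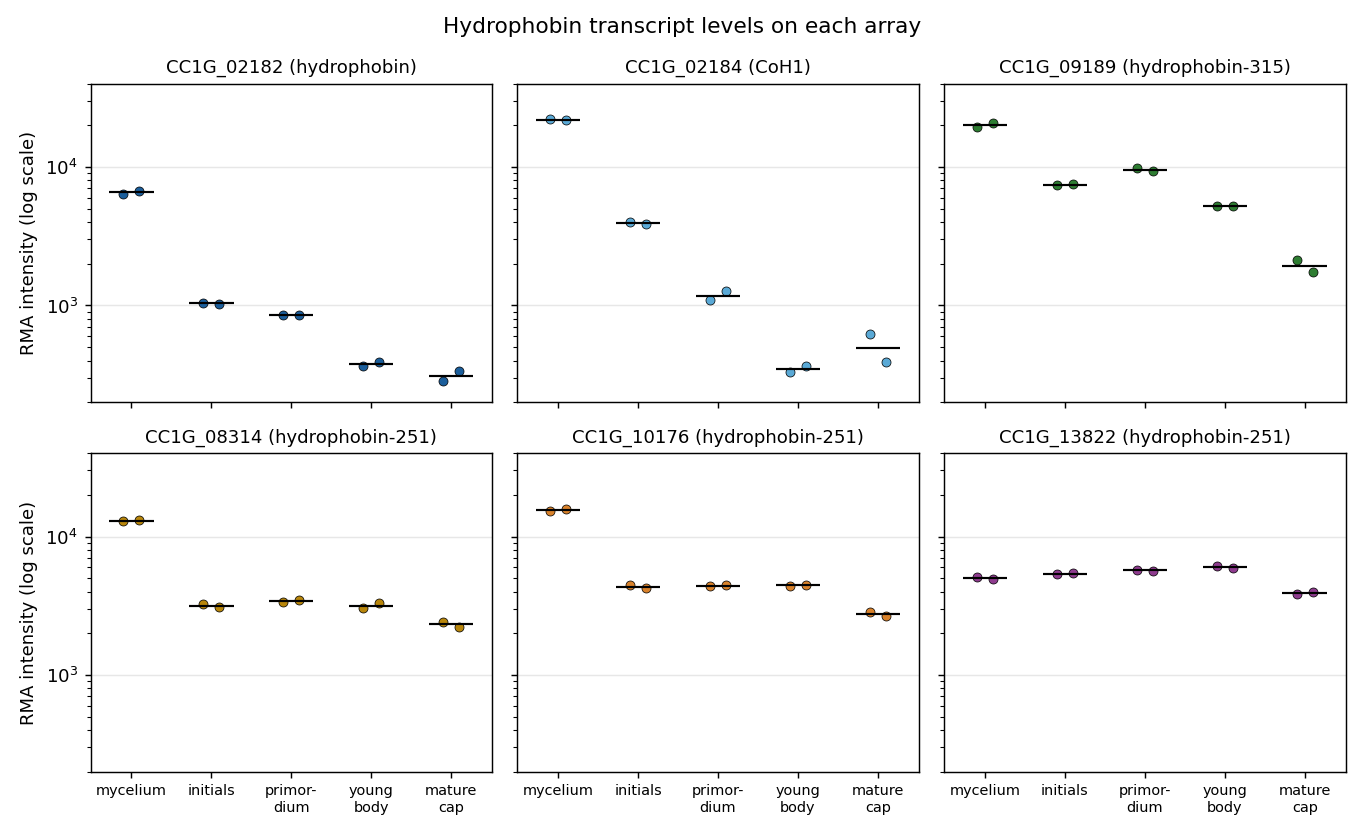
RMA intensity of each hydrophobin (vertical axis, log scale, arbitrary units) in the 5 stages (horizontal axis); points are single arrays and bars are geometric means of 2 arrays. In 5 of the 6 panels both mycelium arrays lie above all other arrays, while CC1G_13822 stays between 3834 and 6098 throughout; levels of different genes come from different probes and are not comparable.

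CC1G_02182 fell at every step and ended at 4.71% of its mycelium level. Its intensity was 6402 and 6742 in mycelium, 1042 and 1026 in initials, 853 and 852 in primordia, 366 and 392 in young fruiting bodies, and 283 and 338 in mature caps. No array of a stage reached the level of the stage before it. The first step was the largest, at -2.67 ± 0.0810 in initials against mycelium (6.36-fold lower, adjusted p = 2.58e-07). Young fruiting bodies were 2.25-fold lower than primordia (-1.17 ± 0.0810, adjusted p = 7.66e-05). The other 2 steps were small: -0.28 ± 0.0810 in primordia against initials (adjusted p = 0.0286) and -0.29 ± 0.0810 in mature caps against young fruiting bodies (adjusted p = 0.0132). The call in primordia was lost without any 1 of the 4 arrays of those stages, with probe block 1 alone, and when the replicates of mycelium, initials and young fruiting bodies, which lay close to array noise, were averaged to 1 sample each (adjusted p between 0.0738 and 0.219). The call in mature caps was lost under 5 of 21 alternatives, among them quantile normalization, where the change was -0.06 (adjusted p = 0.456).

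CC1G_02184, the CoH1 member, had the widest range of the 6, 63.2-fold between its highest and its lowest stage. Its intensity was 22262 and 21773 in mycelium, 4009 and 3892 in initials, 1094 and 1272 in primordia, 331 and 367 in young fruiting bodies, and 619 and 393 in mature caps. The first 4 stages did not overlap with each other, and both mature caps lay above both young fruiting bodies. It fell more than 3-fold at each of 3 steps in a row. Initials were 5.57-fold lower than mycelium (-2.48 ± 0.197, adjusted p = 2.80e-05), primordia 3.35-fold lower than initials (-1.74 ± 0.197, adjusted p = 5.83e-04) and young fruiting bodies 3.38-fold lower than primordia (-1.76 ± 0.197, adjusted p = 5.13e-04). Young fruiting bodies thus held 1.58% of the mycelium level. With replicates averaged in those 3 stages, the call in primordia was just missed (adjusted p = 0.0505).

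The mature cap differed from this decline in CC1G_02184. The change in mature caps against young fruiting bodies was 0.50 ± 0.197 (adjusted p = 0.0511), which missed the threshold. The mature replicates differed 1.58-fold, the largest gap between replicates of any hydrophobin at any stage. The SE pools all stages, while the SD of log2 intensity was 0.464 in mature caps and 0.103 in young fruiting bodies. Without mature replicate 2 the change was 0.83 (adjusted p = 5.05e-04), and without mature replicate 1 it was 0.17, which did not pass. Of the 21 alternatives 7 passed and 14 did not, with adjusted p up to 0.335, so the order of these 2 stages is not settled by the arrays.

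CC1G_09189, hydrophobin-315, was the member with a second, lower peak in primordia. Its intensity was 19582 and 20794 in mycelium, 7444 and 7489 in initials, 9755 and 9324 in primordia, 5261 and 5249 in young fruiting bodies, and 2139 and 1757 in mature caps. All stages were separate from each other, in the order mycelium, primordia, initials, young fruiting bodies, mature caps. Initials were 2.70-fold lower than mycelium (-1.43 ± 0.0868, adjusted p = 6.73e-06). Primordia were 1.28-fold higher than initials (0.35 ± 0.0868, adjusted p = 0.0150), the single called rise of a hydrophobin at that step. That call was lost without either initials array and without primordium replicate 1 (adjusted p between 0.0639 and 0.0776), and with replicates averaged in 3 stages (adjusted p = 0.182). The fall then continued, by 0.86 ± 0.0868 in young fruiting bodies against primordia (adjusted p = 3.37e-04) and by 1.44 ± 0.0868 in mature caps against young fruiting bodies (adjusted p = 4.37e-06). Mature caps held 9.61% of the mycelium level.

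The 3 genes listed as hydrophobin-251 lie close together on chromosome 2 in the RefSeq annotation, with 5 genes between CC1G_08314 and CC1G_13822 and 2 genes between CC1G_13822 and CC1G_10176. CC1G_08314 and CC1G_10176 had nearly one and the same profile. The intensity of CC1G_08314 was 12872 and 13172 in mycelium, 3241 and 3076 in initials, 3393 and 3498 in primordia, 3036 and 3323 in young fruiting bodies, and 2415 and 2228 in mature caps. The intensity of CC1G_10176 was 15343 and 15759 in mycelium, 4471 and 4243 in initials, 4358 and 4450 in primordia, 4380 and 4502 in young fruiting bodies, and 2843 and 2652 in mature caps. In each gene mycelium stood alone at the top, the 3 middle stages lay together, and both mature caps lay below all other arrays.

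CC1G_08314 changed by -2.04 ± 0.0589 in initials against mycelium (4.12-fold lower, adjusted p = 2.02e-07). CC1G_10176 changed by -1.84 ± 0.0447 there (3.57-fold lower, adjusted p = 9.75e-08). Neither gene passed the test between any 2 of initials, primordia and young fruiting bodies, where the fitted changes of CC1G_08314 lay between -0.12 and 0.13 and those of CC1G_10176 between 0.01 and 0.03. At the last step the mature caps were lower than young fruiting bodies, by 0.45 ± 0.0589 for CC1G_08314 (adjusted p = 2.88e-04) and by 0.69 ± 0.0447 for CC1G_10176 (adjusted p = 6.21e-06). Over the 10 arrays the log2 values of these genes correlated at r = 0.994, as a description of 5 stages of 2 arrays. The probe sequences were not used here, so whether probes of the 2 genes share signal was not tested.

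CC1G_13822, the third gene under that name and the member with the longest gene model, had another course on its probes. Its intensity was 5112 and 4969 in mycelium, 5326 and 5414 in initials, 5729 and 5667 in primordia, 6098 and 5961 in young fruiting bodies, and 3834 and 3975 in mature caps. The first 4 stages stood in ascending order without overlap, though they spanned less than the fall that followed. Its whole range was 1.54-fold, and it correlated with CC1G_08314 at r = 0.136 and with CC1G_10176 at r = 0.233 over the 10 arrays.

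CC1G_13822 was higher in young fruiting bodies than in mycelium (0.26 ± 0.0311, adjusted p = 2.15e-04). Initials were 1.07-fold above mycelium (0.09 ± 0.0311, adjusted p = 0.0340), a call lost under 10 of 21 alternatives, among them leaving out any 1 array of mycelium, initials or young fruiting bodies. Neither the step to primordia (0.09 ± 0.0311, adjusted p = 0.0607) nor the step to young fruiting bodies (0.08 ± 0.0311, adjusted p = 0.0691) passed. Mature caps were 1.54-fold below young fruiting bodies (-0.63 ± 0.0311, adjusted p = 1.61e-06) and 1.29-fold below mycelium (adjusted p = 2.42e-05). The differences in change between CC1G_13822 and its namesakes were not tested.

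Counted over the 6 hydrophobins, the first and the last step each held 5 called falls, and the first step held the most falls of at least 2-fold. In initials against mycelium 5 were lower and 1 higher, where 33.7% of all genes were called lower and 37.5% higher. All 5 falls were at least 2-fold, against 10.9% of all genes. The same 5 were at least 2-fold below mycelium in primordia, as were 12.2% of all genes (33.1% lower by any fold), and in young fruiting bodies, as were 12.7% (34.1% by any fold). The median change of the 6 in initials was -1.94, against 0.022 for all genes. The fall of CC1G_02182 was such that 2.07% of all genes changed as low or lower, and for CC1G_09189, the smallest of the 5 falls, the share was 7.18%.

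In primordia against initials 2 hydrophobins were lower, 1 was higher and 3 did not pass, where 24.5% of all genes were called lower and 23.5% higher. In young fruiting bodies against primordia 3 were lower and 0 higher, where 24.8% and 24% of all genes were called. At an unadjusted limma p under 0.05, 1 was higher at that step, CC1G_13822. At both steps CC1G_02184 stood near the lower end of the array, with 0.330% and 0.368% of all genes at or below its change. It was the single hydrophobin to fall 2-fold between initials and primordia (1.72% of all genes did), and CC1G_02182 joined it at the next step (1.99% of all genes). In mature caps against young fruiting bodies 5 were lower and 0 higher, with CC1G_02184 not passing, where 40.7% of all genes were called lower and 38.3% higher. At an unadjusted limma p under 0.05, CC1G_02184 was the 1 higher. Of the 5 falls that of CC1G_09189 alone reached 2-fold, against 14.8% of all genes.

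**Figure D2:**
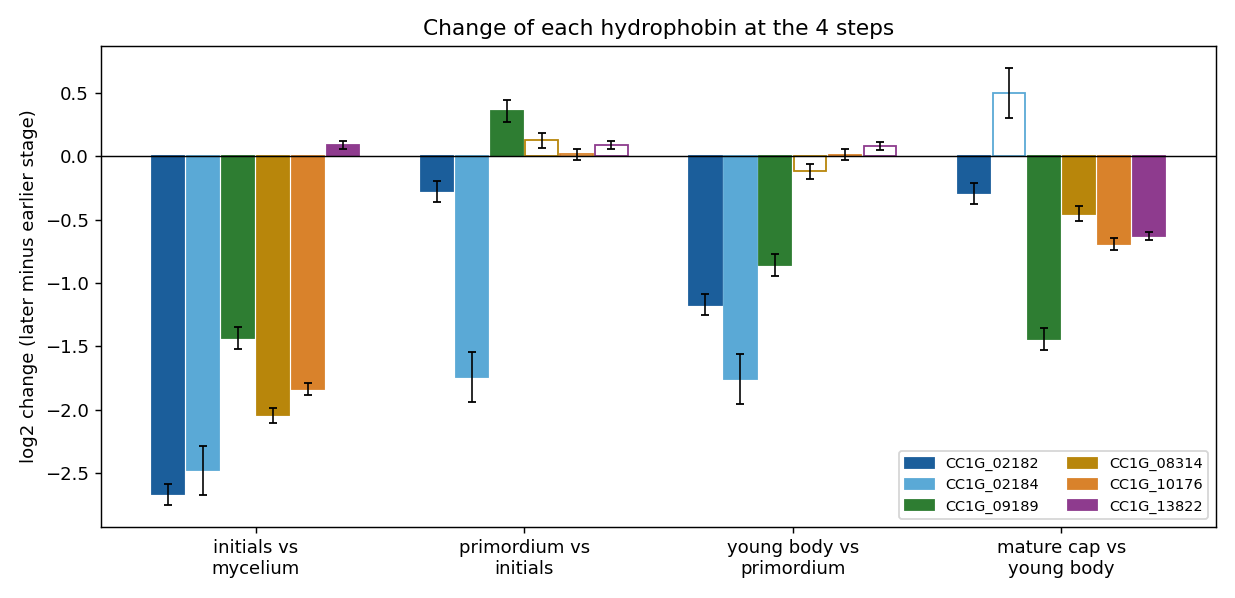
Log2 change of each hydrophobin at the 4 steps between neighbouring stages (later minus earlier, error bars ± SE from limma); filled bars passed the adjusted p threshold and open bars did not. The first step holds 5 falls between -1.43 and -2.67, and CC1G_02184 and CC1G_02182 are the lowest bars at the step from primordia to young fruiting bodies.

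Across the whole course, all 6 hydrophobins were lower in mature caps than in mycelium, where 40% of all genes were called lower. The falls were 44.6-fold for CC1G_02184, 21.2-fold for CC1G_02182, 10.4-fold for CC1G_09189, 5.66-fold for CC1G_10176, 5.61-fold for CC1G_08314 and 1.29-fold for CC1G_13822. The median change of the 6 was -2.94, against 0.033 for all genes. Of the 6, 5 fell at least 2-fold, against 17% of all genes. The comparisons of initials and of mature caps with mycelium share the mycelium arrays.

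**Figure D3:**
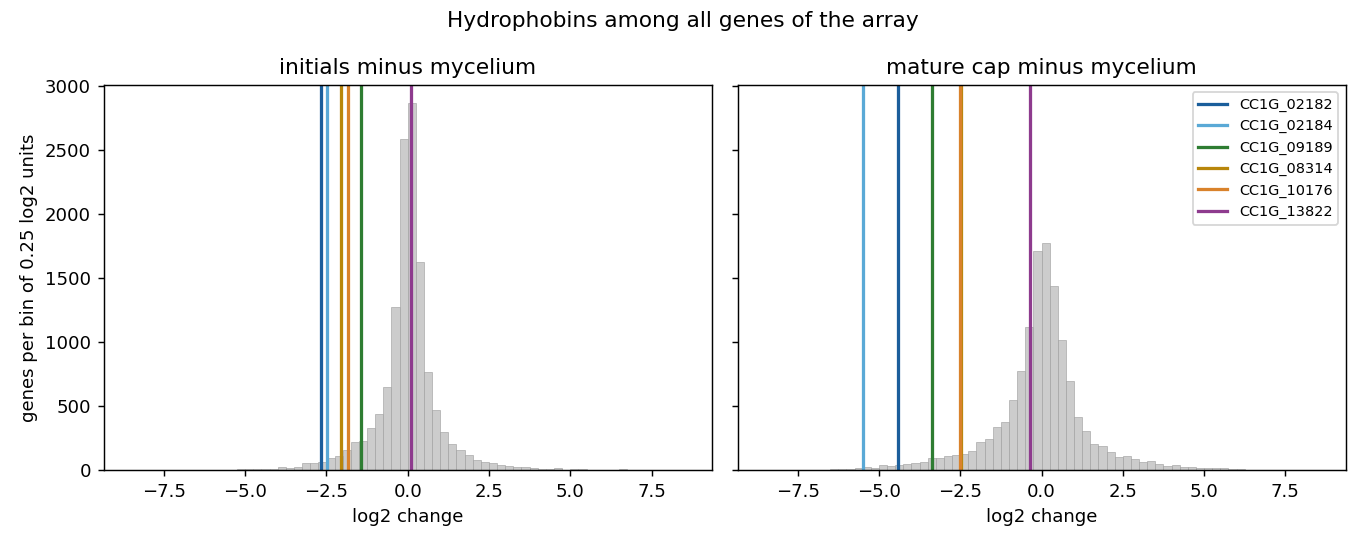
Number of genes (vertical axis) per bin of log2 change (horizontal axis) for initials minus mycelium (left) and mature cap minus mycelium (right), with the outermost bins holding all larger changes; coloured lines mark the hydrophobins. CC1G_13822 lies near the centre in both panels, while the other 5 lie on the falling side, with CC1G_02184 at -5.48 the lowest on the right, where the lines of CC1G_08314 and CC1G_10176 coincide.

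The array lists 4 further genes as CoH1 or CoH2, names used for hydrophobins of Coprinopsis, which the choice by name above left out; they were added after their values were seen. CC1G_02181, CC1G_02183 and CC1G_02185 stand beside CC1G_02182 and CC1G_02184 on chromosome 10, with CC1G_15346, a predicted protein under the floor in 4 stages, among them. CC1G_02181 and CC1G_02183, both listed as CoH1, fell in initials like the hydrophobins next to them, while CC1G_02185, the single CoH2 gene, rose. In initials against mycelium 3 of these 4 genes were lower and 1 was higher, where 33.7% of all genes were lower and 37.5% higher.

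CC1G_02185 had intensities of 1412 and 1472 in mycelium, 7870 and 7486 in initials, 3553 and 4156 in primordia, 1785 and 2053 in young fruiting bodies, and 79.6 and 73.9 in mature caps. It peaked in initials, 5.32-fold above mycelium (2.41 ± 0.0951, adjusted p = 8.32e-07), and then fell at each step. Both mature caps were under the floor, at least 17.6-fold lower than young fruiting bodies (adjusted p = 3.10e-08). Its direct neighbour CC1G_02184 fell 5.57-fold in the initials, the opposite direction.

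CC1G_02183 had intensities of 21145 and 20572 in mycelium, 10270 and 10276 in initials, 6710 and 7401 in primordia, 2053 and 2331 in young fruiting bodies, and 717 and 555 in mature caps. It fell 2.03-fold in initials against mycelium (-1.02 ± 0.123, adjusted p = 2.49e-04) and 33.1-fold over the whole course (-5.05 ± 0.123, adjusted p = 3.78e-08). On the log2 scale, its fall thus came mostly after the initials. CC1G_02181 did nearly all of its fall at the first step, with 4029 and 4345 in mycelium, 575 and 589 in initials and between 484 and 554 on the 6 later arrays. Initials were 7.19-fold below mycelium in that gene (-2.85 ± 0.0589, adjusted p = 5.22e-08).

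CC1G_02174, also listed as CoH1, was dimmer, with 625 and 712 in mycelium, 251 and 244 in initials, 169 and 168 in primordia, 91.8 and 91.0 in young fruiting bodies, and 404 and 222 in mature caps. Of its young fruiting body arrays 1 was under its floor of 94.2 and the other just over its floor of 89.4, so no fold against that stage is given. Both mature caps lay above both young fruiting bodies. Mature replicate 1 was above mature replicate 2 in this gene, as it was in CC1G_02184, CC1G_02183, CC1G_02185, CC1G_08314, CC1G_09189 and CC1G_10176. It was below mature replicate 2 in CC1G_02181, CC1G_02182 and CC1G_13822.

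**Figure D4:**
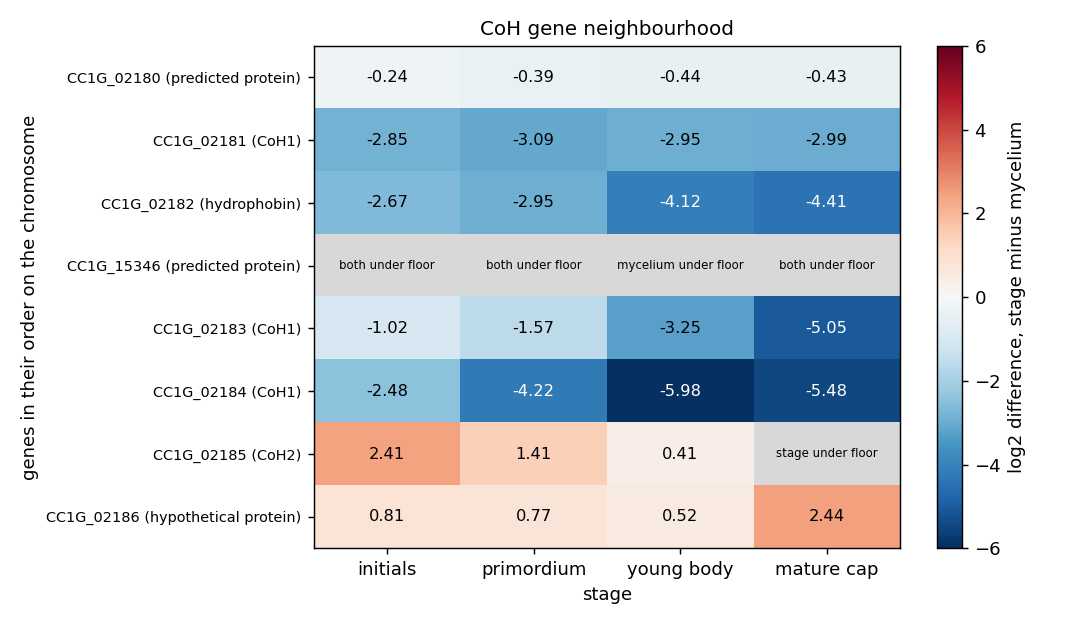
Mean log2 difference from mycelium (colour and number) in each fruiting stage (horizontal axis) for 8 neighbouring genes in their chromosomal order (vertical axis); grey cells had one or both stages under the floor. CC1G_02181, CC1G_02182, CC1G_02183 and CC1G_02184 are blue throughout, CC1G_15346 among them is grey, CC1G_02185 is red at 2.41 in initials, and of the flanking genes CC1G_02180 stays between -0.24 and -0.44 while CC1G_02186 is red throughout.

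Calls of any fold among the genes around the hydrophobins went in both directions, near the shares of all genes. Neighbours under the floor in both stages compared were left out, while those shares include such genes. The 2 neighbours on each side of the members gave 16 further genes on the array that carry neither name. Of these, 3 were under the floor in both mycelium and initials. Of the other 13, 6 were higher and 4 lower in initials than in mycelium, where 37.5% of all genes were higher and 33.7% lower. By at least 2-fold 3 were higher, against 9.01% of all genes, with 0 lower by 2-fold (also at an unadjusted limma p under 0.05), against 10.9% of all genes. Of these 3, CC1G_13823 was under the floor in mycelium (mean 54.0) and stood at a mean of 124 in initials, so its fold is uncertain. In mature caps against mycelium, 12 were measured, 5 were higher and 6 lower, where 40.7% of all genes were higher and 40% lower. By at least 2-fold 4 were higher, against 14.8% of all genes, and 1 was lower, CC1G_09190 next to hydrophobin-315, against 17%. CC1G_02186, beside the CoH2 gene, was highest in mature caps, at a mean of 21944 against 4050 in mycelium.

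The genes with the most similar profile over the 10 arrays were found for each hydrophobin among 6131 genes whose stage means spanned at least 1 log2 unit, by Pearson's r of log2 intensity. These values describe 5 stages of 2 arrays and carry no test. Nearest to CC1G_02182 were the predicted proteins CC1G_14043 (r = 0.996), CC1G_06078 (r = 0.996) and CC1G_10305 (r = 0.995). Nearest to CC1G_02184 was an alpha amylase, CC1G_02838 (r = 0.996), an enzyme that cleaves starch and glycogen, though its own range was narrower, with a mean of 989 in young fruiting bodies and 2409 in mycelium. The predicted protein CC1G_02685 (r = 0.993) had a range nearer to that of CC1G_02184, with 228 in young fruiting bodies and 8974 in mycelium.

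CC1G_08314 was most like the predicted protein CC1G_09277 (r = 0.998), and CC1G_10176 was most like the hypothetical protein CC1G_05702 (r = 0.997). CC1G_09277 was above the floor in mycelium alone. CC1G_09189 was most like the hypothetical protein CC1G_08324 (r = 0.995). The third place there went to an AgaK1-type protein kinase, CC1G_15858 (r = 0.992), with a mean of 389 in mature caps and 2855 in mycelium. The flat profile of CC1G_13822 was nearest to a DEAH family protein, CC1G_08618 (r = 0.995), the chromatin remodelling subunit Mit1, CC1G_01763 (r = 0.995), and the replication protein PSF1, CC1G_12309 (r = 0.994). These genes also stood highest in young fruiting bodies and lowest in mature caps, such as 340 in mature caps and 2732 in young fruiting bodies for PSF1. Their wider ranges were fixed by the limit of at least 1 log2 unit, since CC1G_13822 itself spanned 0.627.

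Other genes of the cell surface and wall changed in both directions on entry into fruiting, where 37.5% of all genes were higher and 33.7% lower. Of 44 genes listed for wall synthesis and protein mannosylation, 11 were higher and 19 lower in initials than in mycelium, with a median change of -0.06. Of 43 chitinases and glucanases, some of which act on plant walls, 21 were higher and 12 lower, with a median of 0.16. Of 9 lectins, hemolysins and GPI-anchor proteins, 4 were higher and 1 lower, with a median of 0.17. In mature caps against mycelium the counts were 13 higher and 21 lower for synthesis, 20 and 14 for lysis, and 1 and 7 for the last list, where 40.7% of all genes were higher and 40% lower. The exo-beta-1,3-glucanase CC1G_08284, with the widest range of the lysis list, changed by -4.86 ± 0.151 in initials against mycelium. The widest range of the synthesis list was that of the GPI mannosyltransferase CC1G_07396, at -0.07 ± 0.0521 in initials against mycelium (adjusted p = 0.293) and -3.44 ± 0.0521 in mature caps against young fruiting bodies. Next came a pair of chitin deacetylases, enzymes that turn chitin into chitosan, which moved in opposite directions in initials against mycelium: CC1G_00973 changed by 1.71 ± 0.0400 and CC1G_09013 by -1.92 ± 0.0502. In mature caps against young fruiting bodies, the class III chitinase CC1G_04407 changed by 3.15 ± 0.0869 and galectin-1 (CC1G_05003) by -3.97 ± 0.0626, each with an adjusted p of at most 1.06e-07.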

How the data were processed

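The authors deposited linear intensity values for each gene in each probe block, summarised with the robust multi-array average (RMA), per the file names. Per the file headers a value summarised 5 probes (fewer for 31 genes) in each of 2 blocks, and gene models came from the Broad Institute. No source used here names the software, its settings or the genome build. The column with the number of probes, of the deposited files, served only for that count. The log2 values of both blocks were averaged per array, with no further normalization, pseudocount or filter. A deposited intensity table of the series held the same averages (largest relative difference 4.98e-08%). Positions of probes within genes were not used. The number of arrays limits the precision.

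Stages came from the sample titles. Differences were tested with limma 3.58.1 in R 4.3.3 (lmFit, eBayes; 5 residual degrees of freedom), over all pairs of stages. In simulated data with all 13320 genes, 100 genes were changed by 1 log2 unit and 100 by 2 in initials. The other genes were flat, and residual spreads were shuffled among genes. For initials against mycelium, 91% of changes of 1 log2 unit and 97% of 2 units were recovered, with 6 false calls. The real data held 9476 calls at that step, so these shares may not carry over. RefSeq (assembly CC3, 13318 genes matched) gave only chromosome, gene order and the rank of the members' gene models by length. Named genes were all members, the 2 neighbours on each side, the 3 most similar profiles per member, and members of the wall, surface and marker lists with the largest ranges. Members, lists and the floor rule were chosen with earlier results of these data known. A planned search for the cysteine pattern in proteins was not run, since no protein sequences were used here. Same-numbered replicates deviated together at r between -0.0237 and 0.503 over pairs of stages. The r was below 0 for young fruiting bodies with primordia or mature caps, and at least 0.151 for all other pairs. Whether a shared factor linked samples of the same number was not tested, and the main model held stage alone. Alternatives left out each array in turn, used 1 probe block, the deposited series table, quantile normalization, median centring, no dim genes, log2(value + 64), a trended and robust variance, only the stages compared, a replicate block, or averaged replicates.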

Additional observations from a re-analysis of the deposited data

How the results depend on the processing

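The 60 changes of a hydrophobin between 2 stages were recomputed under 21 alternatives. Direction and side of the threshold held in 1207 of the 1260 values; 29 lost the call, 13 gained it and 11 changed sign. For the 5 members other than CC1G_13822, each of the 20 falls against mycelium stayed called in all 21 alternatives (adjusted p at most 0.0109). All sign changes were in uncalled values: for CC1G_08314 in young fruiting bodies against initials, -0.029 without initials replicate 2 and -0.056 without young fruiting body replicate 2 (range -0.056 to 0.074 with 1 array left out), -0.012 with quantile normalization and -0.00524 with median centring. For CC1G_10176 they were -0.022 without initials replicate 2 (range -0.022 to 0.054) and -0.00276 with block 1 alone in primordia against initials. In young fruiting bodies against initials they were -0.00975 (range -0.00975 to 0.066) and -0.035 under the same settings. In young fruiting bodies against primordia they were -0.00299 without primordium replicate 1, -0.00779 without young fruiting body replicate 2 (range -0.00779 to 0.032) and -0.032 with block 1 alone.

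Counts of hydrophobins changed as follows. In initials against mycelium the 1 rise became 0 with the replicate block, with block 2 alone, with only the stages compared and with averaged replicates, and 0 to 1 when 1 array was left out. In primordia against initials the 1 rise became 2 with block 2 alone, without dim genes and with a trended, robust variance, 0 with averaged replicates, and 0 to 2 when 1 array was left out. The 2 falls became 1 with block 1 alone, 0 with averaged replicates, and 1 to 2 when 1 array was left out. In young fruiting bodies against primordia 0 rises became 1 with quantile normalization. In mature caps against young fruiting bodies 0 rises became 1 with block 1 alone, quantile normalization, median centring, without dim genes, with log2(value + 64) and with a trended, robust variance, and 0 to 1 when 1 array was left out. The 5 falls there became 4 without young fruiting body replicate 2, with block 1 alone, quantile normalization, only the stages compared and averaged replicates. Averaging the replicates of 3 stages was chosen after seeing the data; it called 1684 of all genes in place of 6397 in primordia against initials and 2269 in place of 6499 in young fruiting bodies against primordia, with 2 residual degrees of freedom. The replicate block, which treated same-numbered samples as paired, moved the 9476 calls in initials against mycelium to 9496.

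When 1 array was left out, wall synthesis falls ranged from 6 to 16 in place of 14 in primordia against initials and 8 to 15 in place of 14 in young fruiting bodies against primordia. Wall lysis falls ranged from 9 to 19 in place of 15 and 9 to 15 in place of 14. The surface list had 1 to 2 falls in place of 1 in initials against mycelium, 1 to 2 rises in place of 1 (2 without dim genes) and 1 to 4 falls in place of 2 in primordia against initials, and 1 to 2 rises in place of 2 and 3 to 5 falls in place of 3 in young fruiting bodies against primordia. With all arrays, 24.5% of all genes were called lower and 23.5% higher in primordia against initials. In young fruiting bodies against primordia the shares were 24.8% and 24%, and in initials against mycelium 33.7% and 37.5%. The number of calls over all genes also shifted when 1 array was left out, so such shifts were not particular to these lists. Their cause was not tested. A search for the cysteine pattern and its length limit were not run.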
